A study of Mus musculus with 10 samples.

Results

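Transcripts of 37 genes of antigen presentation were followed in microglia of mice with 0, 1 or 2 intact copies of Trem2. The genes were taken by name from the 24060 gene names in each deposited table, and all 37 were listed. They fall into 10 class I heavy chain genes counted with B2m, 8 genes of peptide transport and class I loading, 5 genes of the immunoproteasome and its activator, 8 class II genes, 3 transcriptional regulators and 3 costimulatory genes. Of these, 21 lie on chromosome 17, in or near the major histocompatibility complex, and all of those are 11.1 to 14.4 Mb from Trem2 on the same chromosome. The study asked what the loss of Trem2, and of a single copy of it, does to microglia. The 10 libraries came from 3 knockout samples (KO, TREM2-/-, libraries 6 female, 9 male and 12 male), 3 heterozygous samples (Het, TREM2+/-, libraries 5 female, 8 male and 11 female) and 4 wild-type samples (WT, TREM2+/+, libraries 1 female, 4 male, 7 male and 10 female). All mice were adults of 3 to 5 months on a C57BL/6 background, with no treatment in the labels, and cells were taken with magnetic beads against CD11b, a surface protein of microglia and of other myeloid cells. The labels do not describe the Trem2 allele, do not say whether a library is from 1 mouse or a pool, so each p-value reflects only how these libraries differ from each other, which may be technical.

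Class I molecules display peptides from inside the cell to CD8 T cells. The peptides are cut by the proteasome, carried into the endoplasmic reticulum by the TAP transporter, trimmed, and loaded on a heavy chain paired with beta-2 microglobulin. Class II molecules display peptides from endocytosed material to CD4 T cells; the invariant chain, encoded by Cd74, fills their groove until H2-DM exchanges its last fragment for a peptide. Resting microglia are known for low class II display, while macrophages of the meninges and perivascular spaces, dendritic cells and B cells display more, and interferons raise both arms.

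Whole reads recovered from the deposited values came to 17.61 to 45.03 M per library, with KO 9, KO 12, Het 11 and WT 10 sequenced more deeply than the other 6. Trem2 averaged 24.6 ± 3.52 RPKM in KO, 93.9 ± 9.98 in Het and 192 ± 31.1 in WT libraries (SD, n = 3, 3 and 4; RPKM, reads per kilobase of gene scaled to the library's total), and the groups did not overlap. Trem2 was the only gene of all tested that was called in KO against WT (log2 difference -2.93, SE 0.14, adjusted p = 5.45e-06 by limma); in Het against WT its difference of -1.02 (SE 0.14) was not called (adjusted p = 0.238). The microglial marker P2ry12 was at 1599 to 2274 RPKM in all libraries. The summed neutrophil markers were highest in KO, most of all in KO 6, while the summed monocyte markers stood out in KO 6 only. The 11 neutrophil markers summed to 2291, 368 and 379 RPKM in KO 6, 9 and 12, to 354, 318 and 143 RPKM in Het 5, 8 and 11, and to 103, 197, 222 and 211 RPKM in WT 1, 4, 7 and 10. All KO sums were above all others, those of KO 9 and KO 12 by a narrow margin over Het 5. Of the single markers, only Ngp, Camp and Mmp9 were higher in every KO library than in all others. S100a9 was at 154.7 RPKM in Het 5, against 133.9 and 134.5 RPKM in KO 9 and KO 12. In KO against WT, all 9 tested neutrophil markers had a positive difference (median 2.09, 8 at an unadjusted p under 0.05, 0 called), as did all 8 tested monocyte markers (median 0.86, 5 at an unadjusted p under 0.05, 0 called). The 9 monocyte markers summed to 147 RPKM in KO 6, against 43.6 to 57.6 RPKM in the other 9 libraries. Chil3 alone was at 76.6 RPKM in KO 6. Ccr2 and Itga4 were not highest in KO 6, while the other monocyte markers were. Ccr2 was at 7.49 RPKM in KO 6, below KO 9 (10.57), KO 12 (12.16) and WT 10 (11.65).

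No gene of antigen presentation passed the test between genotypes, and the widest spread among them was that of the class II genes between single libraries of the same genotype. A gene was tested if it reached 0.5 RPKM in at least 3 libraries, which 34 of the 37 genes and 13621 genes in all did. Differences are in log2(RPKM + 0.5) from limma with genotype and sex as terms, which understates the change of low genes, and a gene was called at a Benjamini-Hochberg adjusted p under 0.05 over all genes tested. KO against WT called 0 of the 34 genes, beside 0.00734% of all genes tested. Het against WT also called 0 of 34, beside 0.0% of all genes. KO against Het called 0 of 34, beside 0.00734% of all genes. At an unadjusted p under 0.05 there were 2 of the 34 in KO against WT, where the background was 5.13%, 1 in Het against WT, where it was 2.75%, and 0 in KO against Het, where it was 3.35%. A test of the recovered reads by limma-voom also called 0 of the 34 in each comparison. The median difference of the 34 genes was 0.03 in KO against WT, the same as the median of all genes tested (0.03), and -0.02 in Het against WT (all genes 0.00). In KO against WT, 19 of the 34 differences were positive and 15 negative.

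**Figure D1:**
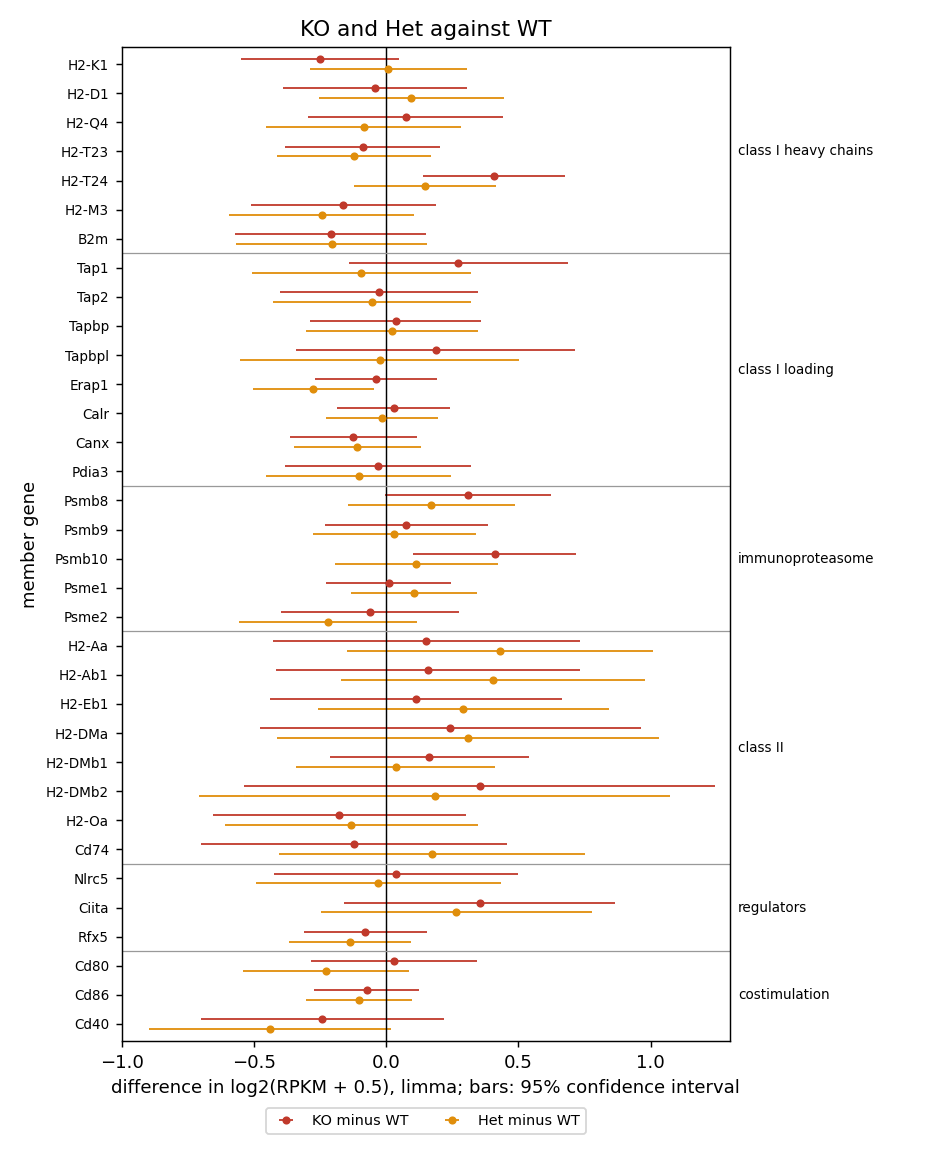
Difference in log2(RPKM + 0.5) of each tested gene in KO minus WT (red) and Het minus WT (orange), by role from top to bottom; points are limma estimates and bars their 95% confidence intervals. H2-T24 at 0.41 and Psmb10 at 0.41 lie to the right in KO, Erap1 at -0.27 to the left in Het, and the class II intervals are the widest.

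The libraries of KO and WT did not overlap for 2 of the 34 genes, H2-T24 and Psmb10, both higher in KO. Over all genes tested, 2.99% lay wholly higher and 1.6% wholly lower in KO than in WT. In Het against WT, 0 of the 34 were separated in either direction, beside 2.23% of all genes higher and 2.3% lower. KO and Het were separated for the same 2 genes, H2-T24 and Psmb10, higher in KO, beside 4.4% of all genes higher and 3.02% lower. With a library left out, more genes are separated in all, and the counts are read against that share in either direction. Between KO and WT, 6 of the 34 genes were separated without KO 6 (17.6%, beside 11.8% of all genes) and 4 without WT 10 (11.8%, beside 9.13%). There were 3 (8.82%) without KO 9, WT 1 or WT 7, beside 11.6%, 7.77% and 7.68%. Without KO 12 or WT 4 there were 2 (5.88%), beside 12.0% and 8.73%. Between KO and Het, 10 were separated without KO 6 (29.4%, beside 17.7%) and 5 without KO 12 (14.7%, beside 18.6%). There were 4 (11.8%) without KO 9, beside 15%, and 4 without Het 11, beside 17.2%. Without Het 5 or Het 8 there were 3 (8.82%), beside 17.2% and 13.7%. Between Het and WT, 4 were separated without WT 10 (11.8%, beside 9.69%) and 3 without Het 5 (8.82%, beside 12.5%). There were 2 (5.88%) without any of Het 11, WT 1, WT 4 or WT 7, beside 7.44% to 12.9% of all genes. Without Het 8 there were 0, beside 10.3%.

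**Figure D2:**
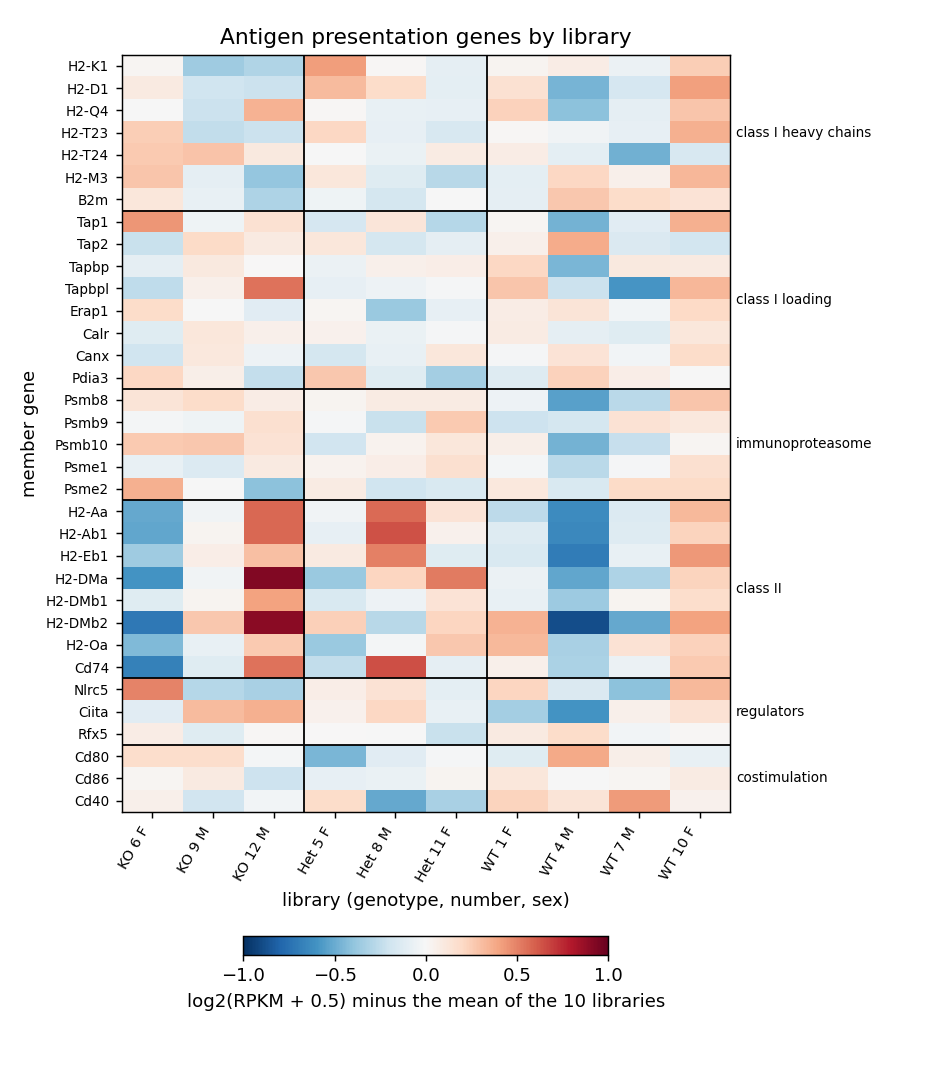
Each row is a tested gene and each column a library, grouped as KO, Het and WT; color gives log2(RPKM + 0.5) minus the gene's mean over the 10 libraries. The class II rows are the most strongly colored and change sign as a block between libraries, low in KO 6 and WT 4 and high in KO 12.

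Among class I heavy chains, B2m and H2-K1 were the most abundant transcripts. B2m, the shared light chain, was at 5025, 4410 and 3748 RPKM in KO 6, 9 and 12, at 4509, 4129 and 4638 RPKM in Het 5, 8 and 11, and at 4378, 5605, 5272 and 5115 RPKM in WT 1, 4, 7 and 10. The groups overlapped, and KO minus WT was -0.21 (SE 0.16) and Het minus WT -0.21 (SE 0.16). H2-K1, a classical heavy chain, was at 868, 670 and 696 RPKM in KO, at 1142, 864 and 807 RPKM in Het, and at 872, 902, 824 and 1016 RPKM in WT libraries. KO 9 and KO 12 lay below every other library for H2-K1 and KO 6 did not; KO minus WT was -0.25 (SE 0.14, adjusted p = 0.977). H2-D1, the other classical chain, was at 337, 276 and 273 RPKM in KO, at 395, 361 and 296 RPKM in Het, and at 354, 231, 283 and 422 RPKM in WT libraries. Every KO value of H2-D1 lay inside the WT range.

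The nonclassical chain gene H2-T24 had the smallest unadjusted p of the 34 genes in KO against WT. It was at 19.6, 19.9 and 17.5 RPKM in KO 6, 9 and 12, at 16.2, 15.5 and 17.2 RPKM in Het, and at 17.1, 15.2, 11.5 and 14.5 RPKM in WT libraries. Every KO library was above every Het and WT library, by a narrow margin over Het 11 and WT 1. KO minus WT was 0.41 (SE 0.12, unadjusted p = 0.00664, adjusted p = 0.927), and KO minus Het was 0.26 (SE 0.13). The difference from WT was 0.35 within the 4 deeper libraries, where WT is WT 10 alone, and 0.43 within the other 6, where KO is KO 6 alone. Without KO 6 it was 0.45 (adjusted p = 0.736). The part of the neutrophil markers, summed higher in all KO libraries, and of the monocyte markers, summed higher in KO 6 only, was not tested. Of the other chains, H2-T23, the mouse Qa-1 gene, H2-M3, which presents formylated peptides, and H2-Q4 spanned 12.6 to 19.5, 22.3 to 36.9 and 12.5 to 21.5 RPKM over the 10 libraries. None of these 3 was separated by genotype. The median difference over the 7 tested genes of this group was -0.09 in KO and -0.09 in Het against WT.

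H2-Q6 was listed at 0 in all 10 libraries. H2-Q7, which encodes the Qa-2 antigen, reached at most 0.289 RPKM. H2-T22, a ligand of gamma-delta T cells, was at 0.0884, 0.0149 and 0.0283 RPKM in KO and at 0.0615, 0.0323 and 0.0153 RPKM in Het libraries, and was listed at 0 in all 4 WT libraries; values this low were not tested. These genes share sequence with others: of the 50-base stretches in their annotated transcripts, 35% of H2-Q6, 26.5% of H2-Q7 and 53.5% of H2-T22 also occur in another gene, against 9.63% of H2-K1, 12.8% of H2-D1 and 3.17% of H2-T24. How reads matching several genes were counted is not given by the sources used here, so the levels of H2-Q6, H2-Q7, H2-T22 and H2-Q4 (36.4% shared) are uncertain.

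No loading gene was separated by genotype. Pdia3, the ERp57 oxidoreductase of the loading complex, was at 245, 221 and 179 RPKM in KO, at 256, 195.4 and 168 RPKM in Het, and at 194, 248, 223 and 212 RPKM in WT libraries. Calr, the calreticulin chaperone, was at 155, 183 and 175 RPKM in KO, at 174, 161 and 168 RPKM in Het, and at 179, 159, 155 and 182 RPKM in WT libraries. Both overlapped between all genotypes, with KO minus WT at -0.03 (SE 0.16) for Pdia3 and 0.03 (SE 0.10) for Calr. Erap1, the aminopeptidase that trims peptides in the endoplasmic reticulum, had the smallest unadjusted p in Het against WT. It was at 17.6, 15.4 and 14.2 RPKM in KO, at 15.7, 11.8 and 14.6 RPKM in Het, and at 16.3, 16.9, 15.2 and 17.8 RPKM in WT libraries. Het 8 was the lowest library and Het 5 lay inside the WT range; Het minus WT was -0.27 (SE 0.10, unadjusted p = 0.0235, adjusted p = 1.00) and KO minus Het 0.24 (SE 0.11). Erap1 shares 10.7% of its 50-base stretches with the overlapping gene Cast. The TAP transporter genes Tap1 and Tap2 spanned 5.90 to 11.6 and 4.89 to 7.62 RPKM, the tapasin gene Tapbp 18.2 to 29.2 RPKM, its relative Tapbpl 4.52 to 10.5 RPKM, and the chaperone gene Canx 122 to 159 RPKM. Of the 8 loading genes, 4 had a positive and 4 a negative difference in KO against WT (median 0.00), and 1 a positive and 7 a negative difference in Het against WT (median -0.07).

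In the immunoproteasome group, Psmb10 was the gene separated between KO and WT. Psmb10 encodes the beta2i subunit, which replaces the constitutive Psmb7. It was at 11.95, 12.0 and 10.9 RPKM in KO 6, 9 and 12, at 8.56, 10.1 and 10.7 RPKM in Het, and at 10.3, 6.95, 8.32 and 10.0 RPKM in WT libraries. All KO libraries exceeded all others, with KO minus WT at 0.41 (SE 0.14, unadjusted p = 0.0137, adjusted p = 0.937) and KO minus Het at 0.30 (SE 0.15). Within the deeper libraries the difference from WT was 0.19 (KO 9 and KO 12 against WT 10 alone), and within the others 0.48 (KO 6 alone against 3 WT libraries). Without KO 6 it was 0.47 (adjusted p = 0.769); the part of the neutrophil and monocyte markers was not tested here either. The ratio of Psmb10 to Psmb7 was 0.402, 0.357 and 0.326 in KO, 0.276, 0.284 and 0.325 in Het, and 0.325, 0.209, 0.260 and 0.282 in WT libraries, so KO 12, Het 11 and WT 1 were close to each other. No 50-base stretch of Psmb10 occurs in another gene.

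Psmb8, the beta5i subunit, was at 31.9, 33.1 and 30.7 RPKM in KO, at 29.7, 30.8 and 30.8 RPKM in Het, and at 28.1, 19.9, 24.1 and 35.5 RPKM in WT libraries. The KO and Het values were tight and the WT values spread on both sides of them, with KO minus WT at 0.31 (SE 0.14, unadjusted p = 0.0532, adjusted p = 0.976). Psme1, the alpha subunit of the PA28 activator, was the most abundant of the group, at 111, 106 and 124 RPKM in KO, at 119, 122 and 130 RPKM in Het, and at 115, 96.02, 115 and 130 RPKM in WT libraries, with overlap throughout. The beta1i gene Psmb9 spanned 18.4 to 25.9 RPKM and the PA28 beta gene Psme2 7.82 to 13.6 RPKM. Psmb8 relative to its constitutive counterpart Psmb5 was 6.18 ± 0.715 in KO, 5.51 ± 1.36 in Het and 4.93 ± 1.00 in WT libraries (SD, n = 3, 3 and 4). Psmb9 relative to Psmb6 was 0.980 ± 0.0734 in KO, 0.975 ± 0.195 in Het and 1.08 ± 0.257 in WT libraries (SD, n = 3, 3 and 4). Of the 5 genes, 4 had a positive and 1 a negative difference in KO against WT, with a median of 0.08. Levels of Psme2 and, among the loading genes, Tapbp are less certain, since 28.3% and 23.2% of their 50-base stretches occur in other genes.

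**Figure D3:**
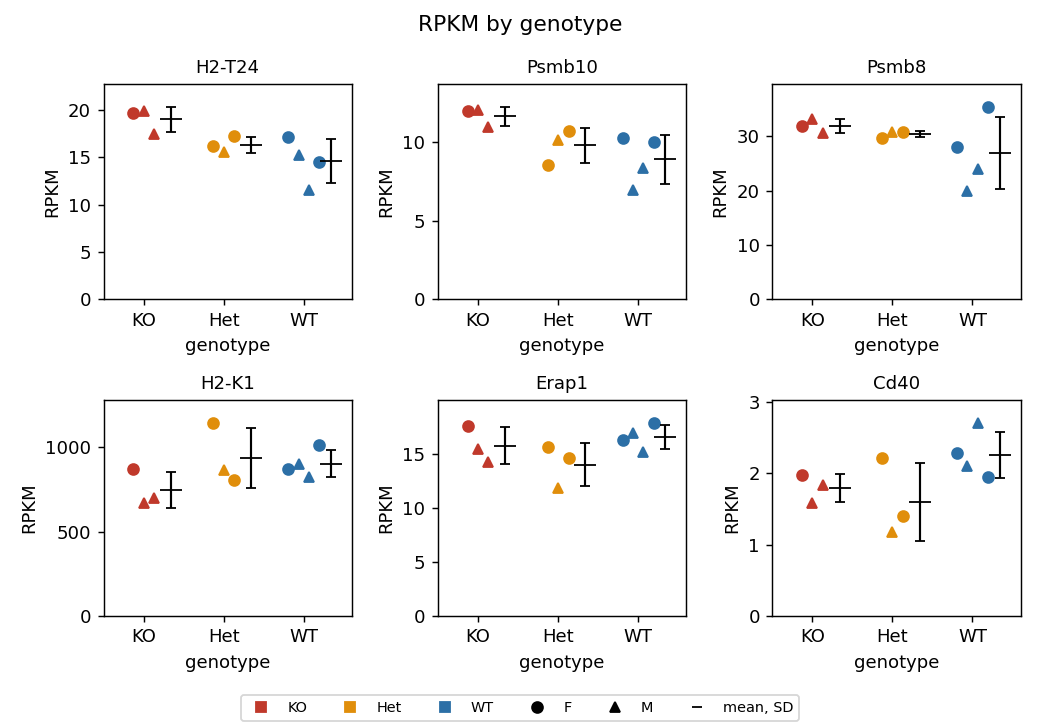
RPKM of H2-T24, Psmb10, Psmb8 and H2-K1, which had the smallest unadjusted p in KO against WT, and of Erap1 and Cd40, which had it in Het against WT; each point is a library, circles are female and triangles male, and bars give the mean and SD (n = 3, 3 and 4). The KO points of H2-T24 (17.5 to 19.9 RPKM) and Psmb10 (10.9 to 12.0 RPKM) lie above all WT points, and those of the other genes do not.

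Most of the 8 class II genes moved together between libraries, and their order did not follow genotype. Their RPKM summed to 991, 1433 and 2212 in KO 6, 9 and 12, to 1335, 2296 and 1494 in Het 5, 8 and 11, and to 1477, 1115, 1418 and 1818 in WT 1, 4, 7 and 10. KO thus held the lowest library and the second highest. KO 6 and WT 4 were among the lowest 3 of the 10 libraries for all 8 genes, KO 12 was among the highest 3 for all 8, and WT 10 for 7. Het 8, with the highest sum, was among the highest 3 for 4 of the 8, and H2-DMb2 was low there at 1.88 RPKM.

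Cd74, the invariant chain, was at 572, 840 and 1332 RPKM in KO, at 770, 1424 and 857 RPKM in Het, and at 948, 732, 875 and 1097 RPKM in WT libraries. H2-Ab1, the beta chain of the I-A molecule, was at 176, 256 and 376 RPKM in KO, at 237, 391 and 259 RPKM in Het, and at 231, 161, 231 and 293 RPKM in WT libraries. H2-Aa, its alpha chain partner, was at 171, 238 and 362 RPKM in KO, at 237, 361 and 268 RPKM in Het, and at 203, 157, 222 and 305 RPKM in WT libraries. For all 3 genes the ranges of KO, Het and WT overlapped, and KO 6 was far below KO 12. H2-Eb1 encodes the I-E beta chain, which has no alpha partner in C57BL/6 mice because of a deletion at H2-Ea, and was at 35.5, 47.7 and 56.1 RPKM in KO, at 48.5, 64.7 and 41.7 RPKM in Het, and at 41.0, 27.9, 43.2 and 61.5 RPKM in WT libraries. KO minus WT was -0.12 (SE 0.26) for Cd74, 0.16 (SE 0.26) for H2-Ab1, 0.15 (SE 0.26) for H2-Aa and 0.11 (SE 0.25) for H2-Eb1. Het minus WT was 0.43 for H2-Aa (SE 0.26, adjusted p = 1.00), with a 95% interval of -0.15 to 1.01 log2 units. The peptide exchange genes H2-DMa, H2-DMb1 and H2-DMb2 and the H2-DO chain gene H2-Oa spanned 18.7 to 54.6, 6.65 to 11.6, 1.06 to 4.87 and 9.23 to 16.1 RPKM. Levels of H2-DMb1 and H2-DMb2 are uncertain, since they share 22.7% and 25.9% of their 50-base stretches with other genes, mostly each other.

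The class II genes were the most variable of these groups. The median residual SD on the log2 scale was 0.43 over the 8 genes, against 0.23 over all genes tested and 0.16 over the 5131 genes with a mean of at least 10 RPKM. Their median difference in KO against WT was 0.16 (6 positive and 2 negative), but it was 0.41 without KO 6, -0.10 without WT 4, -0.09 without KO 12 and -0.03 with the depth split as a term. In Het against WT it was 0.24 (7 positive and 1 negative), 0.05 without WT 4 and 0.45 without WT 10. H2-Aa and H2-Ab1 varied 2.30-fold and 2.43-fold between the lowest and highest library, while their ratio stayed between 0.882 and 1.04. Over the 10 libraries Cd74 correlated with H2-Ab1 at Pearson r = 0.92 (permutation p = 0.00046) and Spearman rho = 0.806 (permutation p = 0.00693), among 13 relations computed after the values were seen (adjusted p = 0.00598 and 0.0569). Without the 2 libraries farthest from the median of Cd74, KO 12 and Het 8, r was 0.793, and within the 6 shallower libraries it was 0.908. H2-Ab1 had the highest r with Cd74. For H2-Aa, H2-Eb1 and H2-DMa, r was 0.885, 0.796 and 0.774. For H2-Oa, H2-DMb1 and H2-DMb2 it was lower, at 0.646, 0.602 and 0.553 (permutation, adjusted p = 0.0913, 0.102 and 0.141). For B2m it was -0.635 (permutation, adjusted p = 0.0913). These points share the libraries' cell makeup and RNA, which the correlation does not separate.

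**Figure D4:**
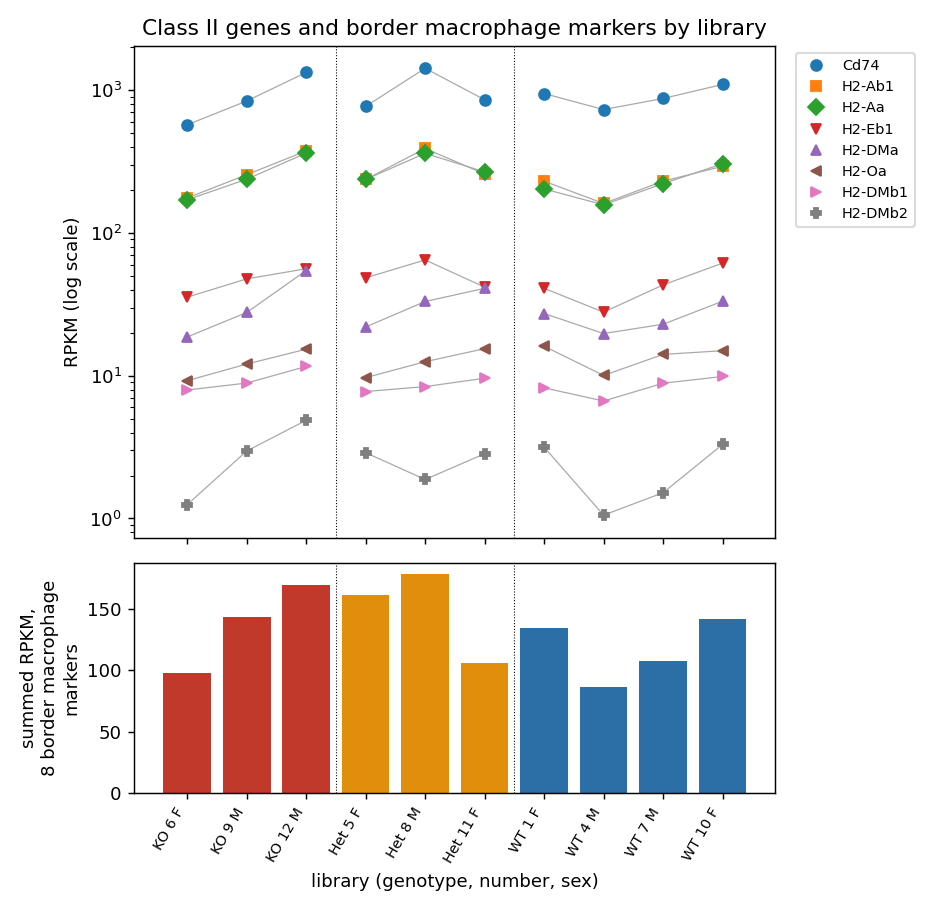
Upper panel: RPKM of the 8 class II genes in each library on a log axis, with lines that only join points of a genotype. Lower panel: summed RPKM of 8 border macrophage markers. Both are low in KO 6 (991 and 97.7 RPKM summed) and WT 4 (1115 and 86.7) and high in Het 8 (2296 and 179). They part in Het 5 (1335 and 162) and Het 11 (1494 and 106).

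Markers of other cells that carry class II were set beside these values; in bulk RNA, more cells of a type and more RNA per cell cannot be told apart. The 8 border macrophage markers, all detected, summed to 97.7, 144 and 170 RPKM in KO 6, 9 and 12, to 162, 179 and 106 RPKM in Het 5, 8 and 11, and to 135, 86.7, 108 and 142 RPKM in WT 1, 4, 7 and 10. Their low libraries were WT 4 and KO 6, the same that were low in class II, while Het 11 was low in these markers and not in class II. Het 5 was high in these markers (162 RPKM) but had a class II sum of 1335 RPKM. It was among the lowest 3 libraries for 4 of the 8 class II genes. Cd74 correlated with Mrc1, the mannose receptor of these macrophages, at r = 0.717 (permutation p = 0.02, adjusted p = 0.0521) and rho = 0.685 (permutation p = 0.0349, adjusted p = 0.0851), and at 0.462 without KO 12 and Het 8. Their part in the class II values was not tested. The 8 dendritic cell markers, led by Cd209a, summed to 34.99 to 60.4 RPKM, with Xcr1 at most 0.897 and Flt3 at most 1.89 RPKM. Of the B cell markers, Pax5 was listed at 0 in every library and Ms4a1 reached 0.0432 RPKM, while Cd79b was at 3.16 to 6.83 RPKM. The 7 T and NK cell markers summed to at most 2.44 RPKM.

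Cd74 was higher in females than in males in WT and lower in females in KO and Het, without passing the test. In WT, Cd74 was at 948 and 1097 RPKM in females and at 732 and 875 RPKM in males. In Het it was at 770 and 857 RPKM in females and 1424 RPKM in the male, and in KO at 572 RPKM in the female and 840 and 1332 RPKM in males. The female minus male difference of the KO effect was -1.23 for Cd74 (SE 0.33, adjusted p = 0.203 by limma), and that of the Het effect was -1.16 (SE 0.33, adjusted p = 0.360). None of the 34 genes was called for either interaction, beside 0.0147% of all genes for KO and 0.00734% for Het. At an unadjusted p under 0.05 there were 10 of the 34 for KO, 7 of them class II, where the background was 14.9%, and 7 of the 34 for Het, 4 of them class II, where it was 10.5%. Not every class II gene followed Cd74 in Het: H2-DMb2 was at 2.89 and 2.84 RPKM in females and 1.88 RPKM in the male, and for H2-DMa, H2-DMb1 and H2-Oa the male lay between the females. The KO value rests on KO 6 alone for females and the Het value on Het 8 alone for males. KO 6 had 19.28 M reads, against 38.08 and 40.14 M in the males KO 9 and KO 12. Sex and depth therefore cannot be told apart in KO, and KO 6 also had the highest neutrophil marker sum. The border macrophage markers were ordered alike, at 135 and 142 RPKM in WT females and 86.7 and 108 RPKM in WT males, against 97.7 RPKM in the KO female and 144 and 170 RPKM in KO males, and their part in the interaction was not tested.

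The promoters of class II genes carry a shared pair of elements, the X box and the Y box, bound by RFX and NF-Y, which recruit the coactivator CIITA; NLRC5 acts at the related class I promoters. RefSeq promoter windows of GRCm38.p6 (250 bases before to 50 after the annotated start) matched 28 of the 37 genes, including 6 of the 8 class II genes. In 4 of these 6 a stretch CNNGNAAC, taken as an X box core after these windows had been viewed, stood 34 or 35 bases ahead of the Y box core GATTGG on the gene's strand. Of all 32851 windows, 9 (0.0274%) hold the pair. Alone, CNNGNAAC is in 39.1% and GATTGG in 16.1% on either strand. Only gaps of 34 or 35 bases were counted, which are the gaps of these 4 genes. With the core also chosen after viewing, the 0.0274% is not a test of these genes. The 150 bases before the start of those 4 genes are shown because they hold the pair. Both cores are in capitals and, in H2-Eb1, a further GATTGG on the other strand (printed as its complement). The low libraries KO 6 and WT 4 and the high library KO 12 were shared by all 8 class II genes, so they do not set these 4 apart. A match is a description of letters only.
H2-Aa, chr17:34287824-34287973, minus strand: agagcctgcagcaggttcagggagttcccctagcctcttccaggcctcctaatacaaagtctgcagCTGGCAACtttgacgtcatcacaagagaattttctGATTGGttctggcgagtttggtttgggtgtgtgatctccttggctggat
H2-Eb1, chr17:34305717-34305866, plus strand: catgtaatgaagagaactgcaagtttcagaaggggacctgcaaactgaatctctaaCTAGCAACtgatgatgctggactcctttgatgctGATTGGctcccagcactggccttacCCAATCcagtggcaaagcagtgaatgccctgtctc
H2-DMb1, chr17:34153041-34153190, plus strand: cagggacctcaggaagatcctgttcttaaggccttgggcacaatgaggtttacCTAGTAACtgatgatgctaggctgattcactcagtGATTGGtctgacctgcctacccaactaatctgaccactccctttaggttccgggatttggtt
H2-Oa, chr17:34092229-34092378, plus strand: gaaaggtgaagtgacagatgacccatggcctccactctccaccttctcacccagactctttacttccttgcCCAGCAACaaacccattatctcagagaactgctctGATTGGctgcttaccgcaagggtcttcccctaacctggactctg

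None of Rfx5, Ciita and Nlrc5 was separated by genotype. Rfx5, the RFX subunit that binds the X box, was at 22.1, 19.3 and 21.2 RPKM in KO, at 21.0, 21.0 and 18.0 RPKM in Het, and at 22.4, 23.9, 20.6 and 21.2 RPKM in WT libraries; 22.3% of its 50-base stretches occur in another gene, so its level is less certain. Ciita, the class II coactivator, spanned 0.891 to 2.19 RPKM; KO 9 and KO 12 were the highest libraries and WT 4 the lowest, and KO minus WT was 0.35 (SE 0.23, adjusted p = 0.987). Ciita correlated with Cd74 at r = 0.536 (permutation p = 0.11) and rho = 0.6 (permutation p = 0.0725), and at 0.279 without KO 12 and Het 8. Nlrc5, the class I coactivator, was at 3.36, 1.74 and 1.69 RPKM in KO, at 2.37, 2.52 and 2.05 RPKM in Het, and at 2.68, 1.97, 1.56 and 2.93 RPKM in WT libraries. KO 6 was the highest library and 2 of the KO libraries were near the lowest, so that KO minus WT was 0.04 (SE 0.21).

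The costimulatory genes showed no separation by genotype. Cd86, a ligand of CD28, was at 75.5, 79.3 and 64.4 RPKM in KO, at 70.4, 71.3 and 76.0 RPKM in Het, and at 80.5, 74.4, 75.5 and 78.8 RPKM in WT libraries. Cd80, the other CD28 ligand, was at 20.7, 20.8 and 18.0 RPKM in KO, at 13.2, 16.9 and 18.1 RPKM in Het, and at 16.7, 23.9, 19.0 and 17.4 RPKM in WT libraries. Cd40, the receptor for T cell help, was at 1.97, 1.59 and 1.84 RPKM in KO, at 2.21, 1.18 and 1.403 RPKM in Het, and at 2.29, 2.11, 2.70 and 1.95 RPKM in WT libraries. Het 8 and Het 11 lay below every WT library for Cd40 and Het 5 did not, with Het minus WT at -0.44 (SE 0.21, unadjusted p = 0.0591, adjusted p = 1.00).

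Between the sexes, none of the 34 genes passed the test, and the class I chain and immunoproteasome genes had positive differences, higher in females. Female against male, compared within genotype, called 0 of the 34 genes by limma, beside 0.044% of all genes tested, and limma-voom called 0 as well. At an unadjusted p under 0.05 there were 4 of the 34, all higher in females, where the background was 5.34%. No gene of the 34 was separated between the sexes, beside 0.565% of all genes higher and 0.338% lower in females. All 7 tested class I chain genes had a positive difference (median 0.20, all genes 0.03), as did all 5 immunoproteasome genes (median 0.16). Of the 8 loading genes, 6 were positive and 2, Tap2 and Canx, negative (median 0.07). Over all genes tested, 7725 differences were positive and 5896 negative. Of the class II genes, 6 of the 8 had a negative difference (median -0.10, but 0.13 without KO 6 and 0.02 without KO 12).

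Nlrc5 was at 3.36, 2.37, 2.05, 2.68 and 2.93 RPKM in females KO 6, Het 5, Het 11, WT 1 and WT 10, and at 1.74, 1.69, 2.52, 1.97 and 1.56 RPKM in males KO 9, KO 12, Het 8, WT 4 and WT 7. Female minus male was 0.42 (SE 0.18, adjusted p = 0.919), and 0.27 without KO 6. H2-D1 was at 337, 395, 296, 354 and 422 RPKM in the same females and at 276, 273, 361, 231 and 283 RPKM in the same males, with a difference of 0.32 (SE 0.13, adjusted p = 0.919). H2-T23 was at 18.0, 17.5, 13.4, 15.2 and 19.5 RPKM in females and at 12.6, 12.9, 14.3, 14.7 and 14.2 RPKM in males, a difference of 0.27 (SE 0.11, adjusted p = 0.919). Het 11 was the low female library and Het 8 the high male one for Nlrc5 and H2-D1. Erap1 averaged 16.4 ± 1.36 RPKM in females and 14.7 ± 1.90 RPKM in males (SD, n = 5 each).

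**Figure D5:**
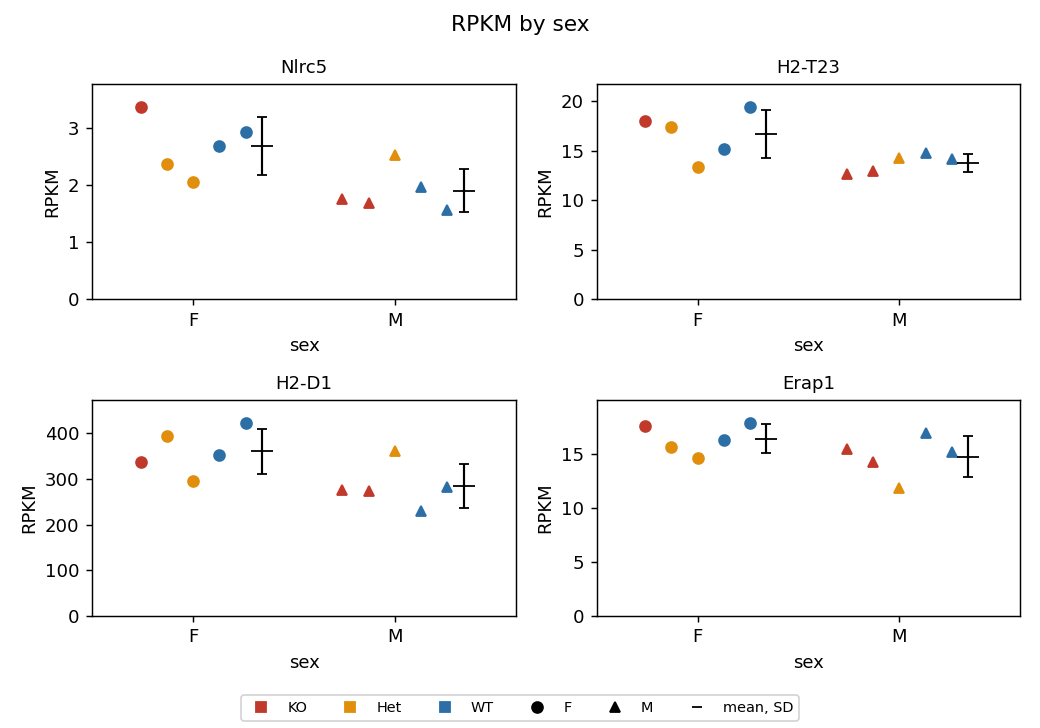
RPKM of the 4 genes with an unadjusted p under 0.05 in female against male; each point is a library colored by genotype, and bars give the mean and SD (n = 5 each). The sexes overlap in all 4 panels, and KO 6 and WT 10 are the high female points of Nlrc5 (3.36 and 2.93 RPKM).

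Genes induced by interferon were set beside these values. The differences of all 19 listed interferon-stimulated genes were positive in females (median 0.39, 0 called, 7 at an unadjusted p under 0.05). Their RPKM summed to 382, 266, 297, 295 and 394 in females KO 6, Het 5, Het 11, WT 1 and WT 10, and to 256, 273, 304, 240 and 266 in males KO 9, KO 12, Het 8, WT 4 and WT 7. KO 6 and WT 10 stood above the rest, and Het 8 above every other male. Cxcl10 was a large part of the sum, at 123 RPKM in Het 8 against 85.3, 87.6, 72.6 and 95.1 RPKM in KO 9, KO 12, WT 4 and WT 7. Ifit1, in contrast, was lowest of all libraries in Het 8 (2.80 RPKM). The order of the sums was not that of H2-D1 throughout. Het 5 had the second highest H2-D1 (395 RPKM) with an interferon sum of 266 RPKM and the lowest Cxcl10 (71.8 RPKM). Their part in the class I values was not tested. Depth and genotype are also mixed here, since the deeper KO libraries are male and the deeper WT library is female: KO minus WT was -0.62 for H2-D1, -0.59 for H2-T23 and -0.63 for Nlrc5 in the deeper libraries, where KO 9 and KO 12 stand against WT 10 alone. In the others, where KO 6 alone stands against 3 WT libraries, it was 0.24 for H2-D1, 0.28 for H2-T23 and 0.61 for Nlrc5.

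The letters before the class I starts are shown for H2-D1 and H2-T23, whose unadjusted p was under 0.05, and for B2m, which did not differ by more than its SE (0.04, SE 0.14). The interferon-stimulated response element core GAAANNGAAA is in 3.44% of all windows on either strand. An exact match was in the windows of H2-T23 and B2m and not in that of H2-D1. Variants of the core were not searched for, so H2-D1 cannot be said to lack such an element. The Y box core GATTGG was in the windows of 8 of 9 class I genes in RefSeq. Capitals mark both cores, on either strand, in the 150 bases before the start.
H2-D1, chr17:35262944-35263093, plus strand: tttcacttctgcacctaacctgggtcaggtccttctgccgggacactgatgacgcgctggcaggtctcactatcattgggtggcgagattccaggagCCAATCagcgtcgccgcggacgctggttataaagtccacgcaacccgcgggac
H2-T23, chr17:36032702-36032851, minus strand: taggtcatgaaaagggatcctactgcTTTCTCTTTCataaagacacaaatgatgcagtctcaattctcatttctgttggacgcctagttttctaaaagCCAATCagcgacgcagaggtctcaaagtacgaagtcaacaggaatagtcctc
B2m, chr2:122147537-122147686, plus strand: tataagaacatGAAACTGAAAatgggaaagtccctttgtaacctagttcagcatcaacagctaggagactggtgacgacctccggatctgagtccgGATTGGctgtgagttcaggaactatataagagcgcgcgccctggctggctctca

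Other genes of the pathway, listed beside these, gave 53 tested of 61 found. In KO against WT, 0 were called, beside 0.00734% of all genes tested. An unadjusted p under 0.05 by limma was reached by 3 of the 53, where the background was 5.13%, so the count is near that share. There were 24 positive and 29 negative differences, with a median of -0.01. The 3 were Nfya, Cd274 and Ctsl. Nfya, the NF-Y subunit that contacts the Y box, lies 32.7 kb from Trem2 and was at 139, 121 and 117 RPKM in KO, at 134, 88.0 and 89.5 RPKM in Het, and at 94.3, 87.1, 98.6 and 89.1 RPKM in WT libraries. All KO libraries were above all WT libraries for Nfya, as for 2.99% of all genes tested, with KO minus WT at 0.46 (SE 0.13, adjusted p = 0.927). Cd274, the PD-L1 inhibitory ligand, averaged 25 ± 4.49 RPKM in KO, 25.9 ± 1.14 in Het and 32.8 ± 2.90 in WT libraries (SD, n = 3, 3 and 4), with KO minus WT at -0.39 (SE 0.13, adjusted p = 0.937). Ctsl, a cathepsin of the endosomal pathway, averaged 314 ± 26.2 RPKM in KO, 352 ± 3.93 in Het and 374 ± 44.1 in WT libraries, with KO minus WT at -0.24 (SE 0.11, adjusted p = 0.972). All 7 tested genes of the class II processing route had a negative difference in KO (median -0.05), but only Ctsl and Cd83 (-0.22, SE 0.20) differed by more than their SE. Ctss was at -0.0006 (SE 0.14). Each of the other pathway lists held differences of both signs. Over all genes tested, 7791 differences were positive and 5827 negative.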

How the data were processed

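The deposited tables hold RPKM per gene for each of 10 libraries, computed by the authors; per the submitters' processing notes the build was mm10 and the tools included edgeR, limma, HTSeq and STAR, with no versions. The sources used here do not give the annotation. RPKM divides by the library total, so a few abundant genes can shift the rest. Whole reads were recovered from the RPKM steps for all 19983 genes above 0 (100.0%, within 0.0005 reads or a relative 5e-08) and gave the depths and a limma-voom test as an alternative. The smallest whole numbers that gave a gene's values were taken. A gene above 0 in a single library thus always passes, and reads with a common factor are understated, so the depths are approximate. The main test was limma 3.58.1 in R 4.3.3 on log2(RPKM + 0.5) with a trend, two-sided, over 13621 genes reaching 0.5 RPKM in 3 or more libraries, all 10 libraries in 1 fit with genotype and sex (6 residual degrees of freedom). The 27 names turned into dates by a spreadsheet were left out; March1 and March8 of the pathway lists are not among the other names. Gene positions are from GENCODE M21 (GRCm38). A fit with the depth split as a term was added after the depths were seen. The test was checked on simulated data with known changes and the same dispersion set for every gene. That dispersion was not taken from the class II genes, so the check does not show how often changes in them would be called.

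The 37 genes, the other lists and the tests were chosen with earlier results of these data known. Values of every library are given for genes that were called, had 1 of the 3 smallest p in a comparison, did not overlap between KO and WT, or were the 2 most abundant of their role (4 for class II); of the other pathway genes, those called or, failing that, the 3 with the smallest p are named. Correlations used 100000 permutations in Python 3.11.15 with scipy 1.17.1.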

Additional observations from a re-analysis of the deposited data

Results flagged for a closer look

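Of 102 groups of values tested for a library apart from its group (34 genes in the WT, female and male libraries), 2 were past the limit, where chance alone gives about 5 in 100. Tapbp, the tapasin gene, was at 18.2 RPKM in the male library WT 4, against 25.2 to 27.1 RPKM in the other 4 male libraries. H2-DMb2 was at 1.25 RPKM in the female library KO 6, against 2.84 to 3.30 RPKM in the other 4 female libraries.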

How the results depend on the processing

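Under 21 other settings, 0 of the 34 genes were called in any comparison (lowest adjusted p = 0.568), and of 2686 recomputed differences 1 changed sign among those larger than their SE: Cd74 in KO against Het, -0.30 with all libraries, was 0.035 without KO 6 (adjusted p = 1.00); leaving out each library gave -0.534 to 0.035. Over all genes, KO against WT called 1 gene; limma-voom, the fit with depth as a covariate and the fit with the depth split each called 2, and leaving out each library gave 1 to 3, the highest without KO 6. KO against Het called 1 gene, and 2 with the depth covariate. For the number of the 34 genes whose libraries do not overlap, leaving out each library of the groups compared gave 2 to 6 in KO against WT (7.68% to 12.0% of all genes), 0 to 4 in Het against WT (7.44% to 12.9%), 3 to 10 in KO against Het (13.7% to 18.6%) and 0 to 2 in female against male (1.31% to 2.15%), and median-ratio scaling gave 1 in Het against WT. The cause was not tested. No paired analysis was possible because the genotypes share no library number. With 3 or 4 libraries a group the class II intervals are wide: that of H2-DMb2 in KO against WT ran from -0.54 to 1.24.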
